A study of Mus musculus with 12 samples.

Results

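The smooth muscle and pericyte genes described here are 10 genes of the contractile apparatus and surface of the mural cells that wrap airways and blood vessels, followed in mouse lung over 4 ages. They were found by gene name (Acta2, Actg2, Myh11, Mylk, Tagln, Cnn1, Lmod1, Des, Pdgfrb and Cspg4), and all 10 were among the 35275 genes of the table and among the 16042 genes with enough reads to be tested. Lungs came from male wild-type C57Bl/6J mice aged 3, 6, 12 and 24 months, and each age had 3 libraries of poly(A) RNA, numbered 1 to 3 and taken here as 1 mouse each, which the labels do not state. Age was the only factor given in the labels, and the comparisons ask how lung expression differs in older mice.

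Smooth muscle shortens when myosin, switched on by a calcium-dependent kinase, pulls on actin filaments. Most contractile genes are driven by serum response factor (SRF) with its coactivators of the myocardin family, which bind a DNA element called the CArG box. In the lung these genes mark airway and vascular smooth muscle and, in part, myofibroblasts, while pericytes of the capillary bed carry the PDGF beta receptor and the NG2 proteoglycan with little contractile protein. Whole lung was sequenced, so fewer cells of a type and less RNA per cell cannot be told apart.

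Of the 10 genes, 6 had an entry among the RefSeq promoters of GRCm38.p6 (Acta2, Mylk, Cnn1, Lmod1, Des and Cspg4), each 300 bases with 250 before and 50 from the annotated start. The Acta2 window (chr19:34255324-34255623, minus strand) is shown because Acta2 is the defining smooth muscle actin and its window was the only one of the 6 with a CArG-like site, marked here in capitals.

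Acta2 promoter: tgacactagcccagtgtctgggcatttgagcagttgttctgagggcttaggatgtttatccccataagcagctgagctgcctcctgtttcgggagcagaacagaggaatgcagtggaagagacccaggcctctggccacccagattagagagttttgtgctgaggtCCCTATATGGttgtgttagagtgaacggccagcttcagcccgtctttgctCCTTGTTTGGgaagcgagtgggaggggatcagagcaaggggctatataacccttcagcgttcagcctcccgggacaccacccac

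The strict CArG box, a run of A and T bases between CC and GG and the same on both strands, was in none of the 6 windows and in 1.63% of 32851 mouse promoter windows of this length. Allowing a single G or C in the run, chosen after the strict form gave no match, found the 2 sites of Acta2, CCCTATATGG from -84 to -75 and CCTTGTTTGG from -34 to -25, and a match in 9.98% of all windows. The Acta2 window also held TATATAA from base 9 to 15 past the start, a motif in 3.24% of all windows. The deposited coordinates place the Acta2 start at 34255336, downstream of the start used for the window, so these positions depend on the start chosen. These are matches of letters and no more, and the Mylk window lies at a start inside the gene.

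Libraries of 24 months differed from all 9 younger ones. They held 14.7 to 18.0 M gene reads and 17533 to 18513 genes with a read, against 15.3 to 21.2 M and 19539 to 20625 at the younger ages, so depth was alike and detection was not. Their read-weighted GC content was 54.3 to 55.9%, against 50.5 to 51.8% at the younger ages. Of the tested genes, 82.8% differed between 24 and 3 months (38.2% higher, 44.6% lower). Each library's trend with GC content and gene length was therefore fitted and removed, and results with this correction stand beside the uncorrected ones. With it, 57.0% of genes differed (30.2% higher, 26.8% lower). Among the 24-month libraries mouse 3 had the lowest TMM scaling factor (0.521, against 0.826 and 0.767 in mice 1 and 2), the highest GC content and the fewest genes with a read. RNA quality or a batch cannot be told apart from age at 24 months. Lung identity was plain, with Sftpc, the surfactant protein of type 2 cells, at 17100 to 34200 FPKM in the 12 libraries. Below, CPM are reads relative to the TMM-scaled size of the library, levels carry the SD of 3 mice, and changes are log2 folds with their SE from edgeR, with p adjusted over all tested genes.

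At 24 against 3 months the contractile genes split. Acta2, Actg2, Cnn1, Lmod1 and Des rose with Pdgfrb and Cspg4, while Myh11 and Mylk, the motor and its activating kinase, fell. In all, 7 of 10 rose, 2 fell and Tagln did not pass, against a background of 38.2% of genes higher and 44.6% lower. With the correction 4 rose (Acta2, Actg2, Des and Cspg4), the same 2 fell, and Tagln, Cnn1, Lmod1 and Pdgfrb did not pass. The median log2 fold change of the 10 was 1.42, against -0.29 over all genes, and 0.31 with the correction, against 0.01 over all genes.

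**Figure D1:**
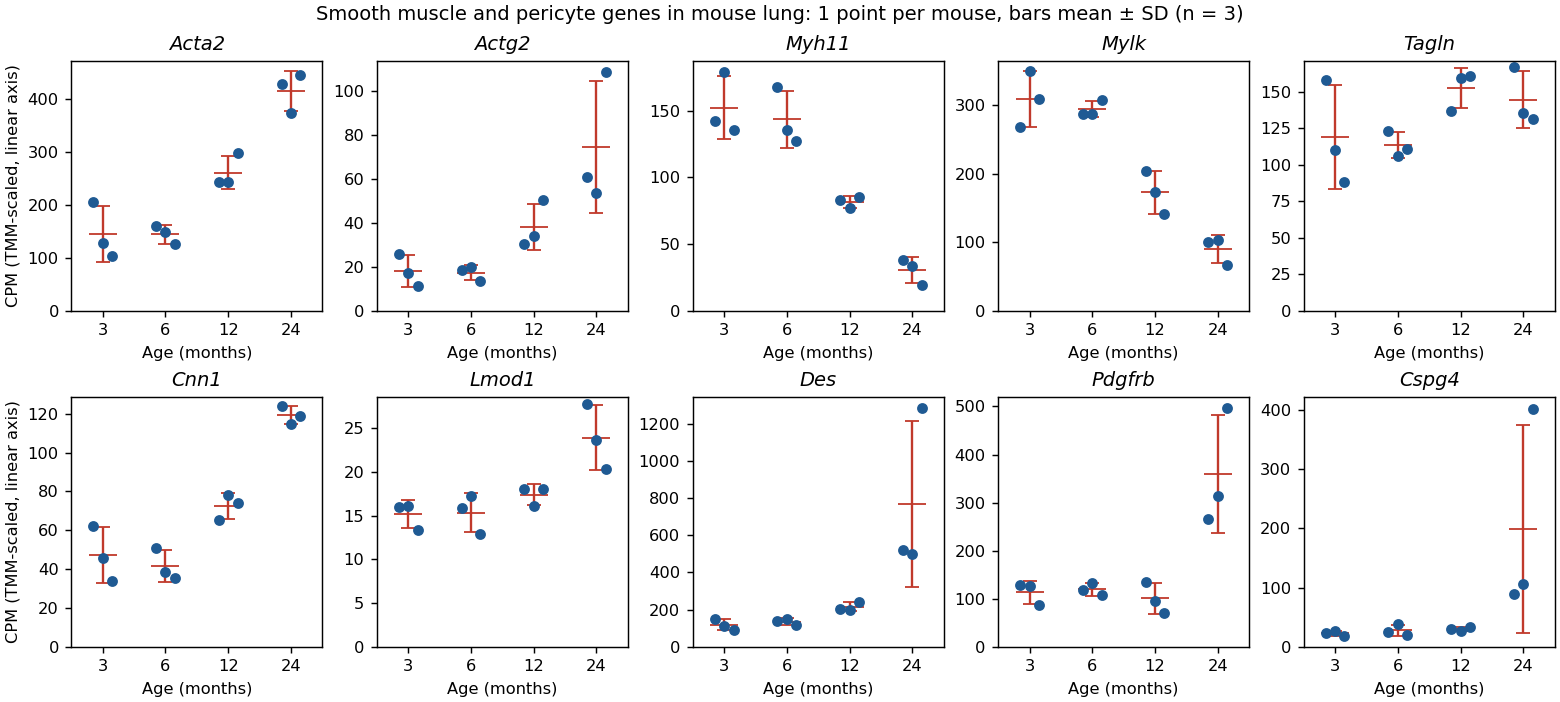
Level of each of the 10 genes (CPM, linear axis from 0) by age in months, with 1 blue point per mouse and red bars for the mean ± SD (n = 3). Acta2 and Cnn1 are highest and Myh11 and Mylk lowest at 24 months in all 3 mice, and 1 of the 24-month mice stands above the others for Des, Actg2, Pdgfrb and Cspg4.

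Acta2 (ENSMUSG00000035783, mm10 chr19:34241090-34255336), the alpha actin of vascular smooth muscle and myofibroblasts, had 204, 127 and 103 CPM at 3 months, 160, 148 and 125 CPM at 6 months, 243, 242 and 297 CPM at 12 months, and 427, 372 and 445 CPM at 24 months. In CPM the 12-month mice were all above the younger mice and the 24-month mice above all others. In FPKM, which are not TMM-scaled, Acta2 had 198, 160 and 130 at 24 months, against 148, 144 and 177 at 12 months, and these ages overlapped. At 3 months Acta2 had 133, 86.0 and 66.2 FPKM, so 24-month mouse 3 lay just below 3-month mouse 1 and these ages overlapped too. It rose at 24 months by 1.52 ± 0.24 (adjusted p = 3e-05), and by 1.85 ± 0.22 with the correction (adjusted p = 7e-06). Acta2 was the only one of the 10 whose rise was larger with the correction, and its GC content of 49.9% was the lowest of the 10. Its longest transcript shares 0.353% of its 50-base stretches with Actg1, a cytoplasmic actin, and with actin pseudogenes.

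Actg2 (ENSMUSG00000059430, chr6:83512905-83536265), the gamma actin typical of gut and other visceral muscle, had 25.6, 17.0 and 11.4 CPM at 3 months, 18.4, 20.0 and 13.3 CPM at 6 months, 30.5, 33.8 and 50.2 CPM at 12 months, and 60.7, 53.7 and 109 CPM at 24 months. In CPM every 24-month mouse was above every younger one, and mouse 3 was the highest. In FPKM mouse 3 stood less apart, with 37.6, 30.8 and 42.5 in the 24-month mice. The 12-month mice had 24.9, 26.9 and 40.0 FPKM and overlapped them, while the 3-month mice had 22.2, 15.4 and 9.80 FPKM and did not. Actg2 is the gene tested next. At 24 against 3 months Actg2 rose by 2.04 ± 0.33 (adjusted p = 3.1e-05), and by 1.33 ± 0.30 with the correction (adjusted p = 0.0019). Its transcript shares no 50-base stretch with another gene.

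Myh11 (ENSMUSG00000018830, chr16:14194527-14291408), the heavy chain of smooth muscle myosin and the most specific marker of the mature cell, had 142, 179 and 135 CPM at 3 months, 168, 136 and 127 CPM at 6 months, 82.6, 76.8 and 85.0 CPM at 12 months, and 37.9, 33.7 and 19.3 CPM at 24 months. The 12-month mice lay below every younger mouse, and the 24-month mice below all others. It fell to 30.3 ± 9.8 CPM at 24 months, against 152 ± 23.7 CPM at 3 months (-2.32 ± 0.25, adjusted p = 6e-07). The correction made the fall larger (-2.76 ± 0.27, adjusted p = 1.3e-06).

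Mylk (ENSMUSG00000022836, chr16:34745210-35002420), the myosin light chain kinase that starts contraction, followed Myh11. It had 268, 350 and 309 CPM at 3 months, 288, 288 and 308 CPM at 6 months, 203, 173 and 142 CPM at 12 months, and 100, 103 and 66.3 CPM at 24 months. Every 24-month mouse lay below every younger mouse. The fall was -1.78 ± 0.22 (adjusted p = 2.6e-06), and the correction deepened it to -2.29 ± 0.19 (adjusted p = 3.6e-07). Of the 50-base stretches of its longest transcript, 4.28% also lie in the antisense genes E130310I04Rik and Gm21691.

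Myh11, Mylk and Cspg4 make long transcripts, of 6632, 7824 and 8050 bases, and the part of length in their changes was not tested. At the GC content and length of Myh11 and Mylk the trend over all genes was a rise of 0.46 and 0.53 (log2) between 3 and 24 months, so the correction moved them further down. For Des, Pdgfrb and Cspg4, with 55.0, 55.0 and 58.2% GC, the trend was 1.43, 1.26 and 1.79, and for Cnn1 and Lmod1 1.06 and 0.94. For Acta2 it was -0.31. RNA integrity per library was not given in the sources used here.

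**Figure D2:**
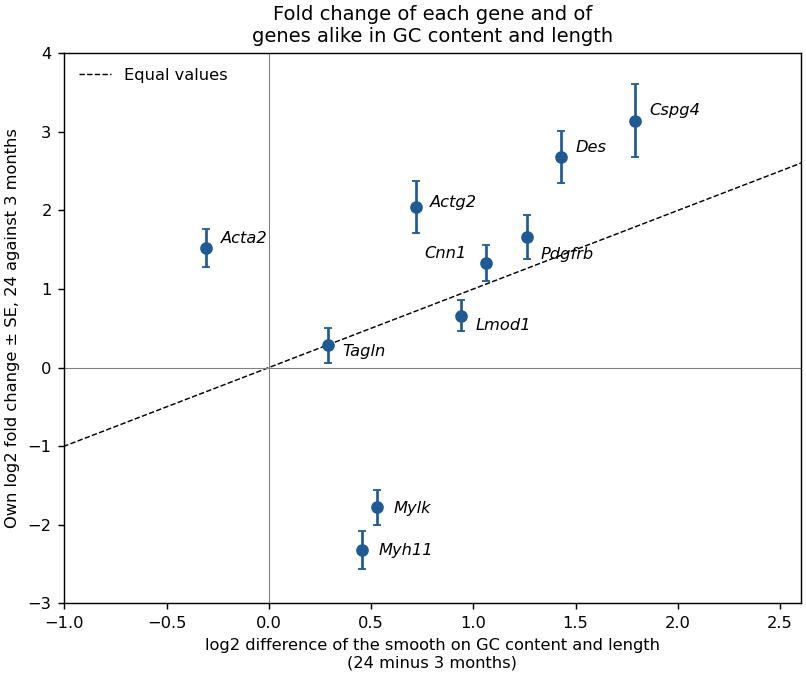
Log2 fold change of each gene at 24 against 3 months (y axis, ± SE) against the log2 difference of the trend on GC content and gene length at that gene (x axis), with a dashed line where both are equal. Tagln, Cnn1, Pdgfrb and Lmod1 lie near the line, Acta2, Actg2, Des and Cspg4 above it, and Myh11 and Mylk far below it.

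Among regulators of the actin filament the changes were smaller. Cnn1 (ENSMUSG00000001349, chr9:22099281-22109630), a calponin that inhibits the myosin ATPase, had 124, 115 and 119 CPM at 24 months, against 62.3, 45.8 and 33.9 CPM at 3 months. In CPM the 24-month mice were close to each other and above all 3-month mice (1.33 ± 0.23, adjusted p = 5.1e-05), and with the correction the difference was 0.29 ± 0.20 (adjusted p = 0.23). In FPKM Cnn1 had 43.2, 37.2 and 26.2 at 24 months, against 30.4, 23.2 and 16.4 at 3 months, and these ages overlapped. Lmod1 (ENSMUSG00000048096, chr1:135324807-135368065), a leiomodin that starts actin filaments, had 27.8, 23.6 and 20.4 CPM at 24 months, against 16.0, 16.1 and 13.3 CPM at 3 months (0.66 ± 0.19, adjusted p = 0.005). Its call rested on single 3-month mice, with 0.49 (adjusted p = 0.062) without mouse 1 and 0.35 (adjusted p = 0.183) without mouse 3, and its sign turned with the correction (-0.27 ± 0.20, adjusted p = 0.27). Tagln (ENSMUSG00000032085, chr9:45929628-45936058), the actin-binding protein SM22, had 167, 136 and 132 CPM at 24 months, against 158, 110 and 88.3 CPM at 3 months, with overlapping groups (0.28 ± 0.22, adjusted p = 0.24). Its corrected difference was 0.01 ± 0.16 (adjusted p = 0.98). Of the 50-base stretches of Tagln, 44.5% also lie in the antisense gene Gm48529 and 3.82% in Pcsk7 on the other strand. The sources used here do not say whether counting used strand, so reads from Tagln and these genes cannot be told apart, which holds also for 5.81% of Des, shared with the antisense gene Gm15179.

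Des (ENSMUSG00000026208, chr1:75360329-75368579), the intermediate filament of smooth, heart and skeletal muscle, had 521, 499 and 1280 CPM at 24 months, against 152, 114 and 92.7 CPM at 3 months. All 24-month mice were above the 3-month mice, and mouse 3 stood far above the others. Des rose by 2.68 ± 0.33 (adjusted p = 2.5e-06) and by 1.17 ± 0.25 with the correction (adjusted p = 0.0012). Without 24-month mouse 3 Des had 2.10 (adjusted p = 9.1e-08), and a corrected 0.76 (adjusted p = 0.0084). Heart muscle, which in mice extends into the pulmonary veins, and skeletal muscle also make desmin. The summed level of 9 heart muscle markers was 697 to 1170 CPM at 24 months, against 313 to 586 CPM at 3 months, with none at 0 reads, and 7 of the 9 rose, against 38.2% of all genes. With the correction 2 rose and 1 fell, against 30.2% and 26.8% of all genes. Myh6, the alpha heavy chain of heart myosin, had 382 ± 74.3 CPM at 24 months, against 192 ± 38.5 CPM at 3 months (0.99 ± 0.35), and turned to -0.51 ± 0.38 with the correction (adjusted p = 0.27). The sum of 7 skeletal muscle markers was 360 CPM in 24-month mouse 3, 33.8 and 22.1 CPM in the other 24-month mice, and 9.26 to 13.0 CPM at 3 months. Acta1, the skeletal actin, had 65.7 ± 113 CPM at 24 months, against 0.745 ± 0.166 CPM at 3 months, and Ckm, muscle creatine kinase, 60.5 ± 67.1 CPM at 24 months, against 2.92 ± 0.64 CPM at 3 months. Myh1, Myh2 and Myh4, myosins of fast skeletal fibres, were too low to be tested, and every library of any age had 0 reads of at least 1 of them. The part of other muscle in the rise of Des was not tested.

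The surface genes of pericytes rose at 24 months by their counts. Pdgfrb (ENSMUSG00000024620, chr18:61045150-61085061), the receptor by which PDGF-B from endothelium holds pericytes to vessels, had 267, 314 and 498 CPM at 24 months, against 128, 126 and 86.1 CPM at 3 months. In FPKM the 24-month mice were closer together, at 40.6, 44.4 and 47.8. The groups were apart (1.66 ± 0.28, adjusted p = 5.5e-05), and the corrected difference was 0.34 ± 0.19 (adjusted p = 0.14), which passed without 3-month mouse 1 (0.53, adjusted p = 0.034). Cspg4 (ENSMUSG00000032911, chr9:56865104-56899870), which encodes the NG2 proteoglycan of pericytes, had 88.3, 106 and 403 CPM at 24 months, against 22.8, 26.0 and 18.7 CPM at 3 months. Mouse 3 was far above the other 24-month mice. Cspg4 rose by 3.14 ± 0.46 (adjusted p = 1.3e-05), by 2.12 without 24-month mouse 3 (adjusted p = 4.2e-07), and by 1.06 ± 0.25 with the correction (adjusted p = 0.0021), where leaving out that mouse gave 0.71 (adjusted p = 0.0073).

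**Figure D3:**
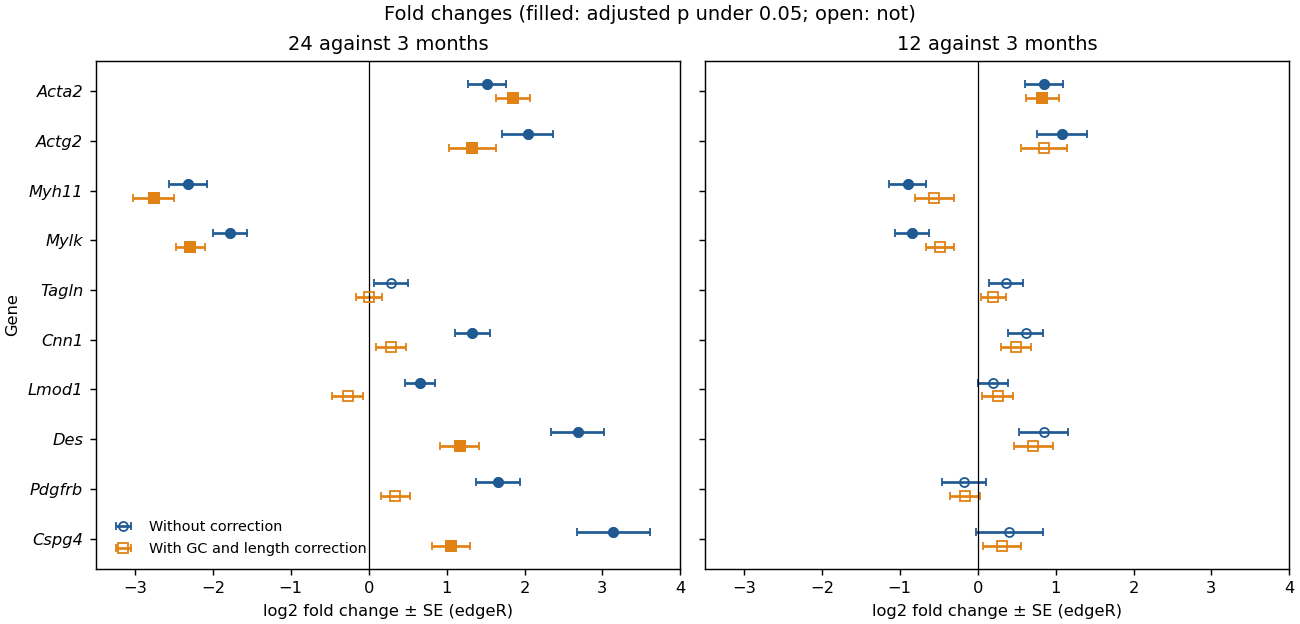
Log2 fold changes ± SE of the 10 genes at 24 against 3 months (left) and 12 against 3 months (right), without the correction (blue circles) and with it (orange squares), filled where the adjusted p was under 0.05. At 24 months Myh11 and Mylk lie at -2.76 to -1.78 in both fits, Acta2 lies at 1.52 and 1.85, and Lmod1 changes side.

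A split between actin and myosin genes was also called at 12 months. At 12 against 3 months Acta2 rose (0.85 ± 0.24, adjusted p = 0.031) and so did Actg2 (1.08 ± 0.32, adjusted p = 0.036), while Myh11 fell (-0.90 ± 0.23, adjusted p = 0.023) with Mylk (-0.84 ± 0.22, adjusted p = 0.022). These were 2 members higher and 2 lower of 10, against 15.2% of genes called (6.30% higher, 8.87% lower). Each of the 4 calls was lost when certain single mice were left out. Most of these fits also called fewer of all genes. Lacking 3-month mouse 2 or 3 they called 302 of 16245 and 485 of 16310, against 2433 of 16042 in the full fit. Lacking 12-month mouse 1, 2 or 3 they called 1057 of 16277, 751 of 16332 and 3426 of 16326. The adjusted p of Acta2 was 0.0548 to 0.154 when 3-month mouse 2, 3-month mouse 3 or any 12-month mouse was left out, and that of Actg2 0.0512 to 0.157 in the same fits. For Myh11 it was 0.0635 to 0.122 in the fits lacking mouse 2 or 3 of 3 months, or mouse 1 or 2 of 12 months. For Mylk it was 0.0753 to 0.112 in the fits lacking mouse 2 or 3 of 3 months, or mouse 2 of 12 months. Each kept its sign in these fits. Cnn1 passed without 3-month mouse 1 (0.86, adjusted p = 0.0271).

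With the correction Acta2 alone passed at 12 months (0.83 ± 0.21, adjusted p = 0.017), against 19.3% of genes called (10.6% higher, 8.75% lower), and its adjusted p was 0.0659 to 0.0755 in the fits lacking mouse 2 or 3 of 3 months, or mouse 3 of 12 months. Of all genes these fits called 900 of 16150, 1427 of 16215 and 2178 of 16227, against 3084 of 15949 on all 12 libraries. In the corrected fit lacking 3-month mouse 1, Actg2 (1.09), Des (0.89) and Cnn1 (0.70) passed as well, with adjusted p of 0.0389 to 0.0452. Lacking 12-month mouse 1, Actg2 passed (1.04, adjusted p = 0.0468), and lacking 12-month mouse 3, Myh11 passed (-0.83, adjusted p = 0.0417). In the corrected fit on all 12 libraries none of the 10 was called lower by edgeR, with 2 of 10 lower at an unadjusted p under 0.05. DESeq2, run without the correction, called 5 of 10 in either direction, and 3444 of 24086 genes. The corrected fit without the 24-month libraries called 5 members, with Acta2 (0.84, adjusted p = 0.01), Actg2 (0.86, adjusted p = 0.038) and Des (0.71, adjusted p = 0.018) higher and Myh11 (-0.56, adjusted p = 0.0482) and Mylk (-0.50, adjusted p = 0.00789) lower. The same fit called more of all genes too, 4810 of 15816. On all 12 libraries the corrected Myh11 had -0.56 ± 0.25 (adjusted p = 0.12), and its corrected level in 12-month mouse 3, 144 CPM, lay among the 3-month mice at 129 to 175 CPM. Mylk had -0.49 ± 0.18 (adjusted p = 0.07). Without the correction Des had 0.85 ± 0.32 (adjusted p = 0.077) and Cnn1 0.62 ± 0.22 (adjusted p = 0.07), with 206, 197 and 242 CPM of Des at 12 months, against 152, 114 and 92.7 CPM at 3 months. At 12 months 5 of 9 heart muscle markers rose (3 with the correction), among them Actc1, the cardiac actin (1.02 ± 0.29, adjusted p = 0.029). Pdgfrb, Cspg4, Tagln and Lmod1 had -0.18, 0.41, 0.36 and 0.20, with adjusted p of 0.24 to 0.67.

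At 6 against 3 months none of the 10 genes was called by edgeR, none had an unadjusted p under 0.05, and DESeq2 called 0. Of the 16042 tested genes edgeR called none either (0%), and 1 with the correction (0.00627%), while DESeq2 called 6 and edgeR without the filter 2 of 24086 genes. The fold changes of the 10 lay between -0.19 for Cnn1 and 0.30 for Cspg4. With SE of 0.19 to 0.43, differences of that size were not detectable.

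At 24 against 12 months 7 members rose and 2 fell, against 79.7% of genes called (37.3% higher, 42.5% lower). Myh11 fell by 1.42 ± 0.24 (adjusted p = 6.6e-05) and Mylk by 0.94 ± 0.22 (adjusted p = 0.00099), and both passed with the correction too (-2.21 ± 0.26 and -1.81 ± 0.19). Acta2 rose by 0.67 ± 0.24 (adjusted p = 0.018, with 0.199 lacking 12-month mouse 1 and 0.0597 lacking 12-month mouse 2) and by 1.03 ± 0.21 with the correction (adjusted p = 0.0014). With the correction 3 rose (Acta2, Pdgfrb and Cspg4) and 3 fell (Myh11, Mylk and Lmod1), against 42.6% of genes called (21.4% higher, 21.1% lower). Pdgfrb then had 0.50 ± 0.19 (adjusted p = 0.045, with 0.0508 to 0.167 in the fits lacking mouse 2 or 3 of 12 months, or any 24-month mouse). Cspg4 had 0.74 ± 0.24 (adjusted p = 0.023, with 0.135 lacking 24-month mouse 3, where the difference was 0.39, and 0.0696 and 0.0956 lacking 12-month mouse 1 and 2). Lmod1 had -0.53 ± 0.20 (adjusted p = 0.049, with 0.0603 to 0.278 in the fits lacking mouse 1 or 3 of 12 months, or mouse 2 or 3 of 24 months), opposite to its uncorrected 0.46 ± 0.19 (adjusted p = 0.038, with 0.074 to 0.296 in the fits lacking mouse 1 or 2 of either age). Uncorrected rises of Cnn1 (0.72 ± 0.22) and Actg2 (0.96 ± 0.32) did not pass without 12-month mouse 1 (adjusted p = 0.144 and 0.141), nor Actg2 without 24-month mouse 3 (0.0679). In the corrected fit lacking 12-month mouse 3, Actg2 (0.83, adjusted p = 0.0372) and Des (0.70, adjusted p = 0.0429) passed. The uncorrected rises of Des and Pdgfrb were both 1.84 (± 0.32 and ± 0.29), with 1.25 for Des without 24-month mouse 3, and that of Cspg4 was 2.74 ± 0.46, with 1.71 without it.

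Within each library, the level of myosin relative to actin was lower at 12 and 24 months than at 3 months. The FPKM of Myh11, which scales reads by gene length, was 18.7, 37.8 and 35.4% of that of Acta2 at 3 months, 28.2, 24.6 and 27.3% at 6 months, 9.13, 8.52 and 7.70% at 12 months, and 2.38, 2.43 and 1.17% at 24 months. Only 3-month mouse 1 was low for its age, and no 12-month or 24-month value reached it. The ratio was 2.00 ± 0.72% at 24 months, against 30.6 ± 10.4% at 3 months, a log2 difference of -3.95 (two-sided exact permutation p = 0.1, the smallest that 3 against 3 mice allow). At 12 against 3 months it was -1.79 (exact permutation p = 0.1), with 8.45 ± 0.72% at 12 months. Mylk over Acta2 was 5.01 ± 1.48% at 24 months, 15.4 ± 4.17% at 12 months and 53.7 ± 20.8% at 3 months, with the same exact permutation p = 0.1 for both older ages. Both ratios differed by -0.13 and -0.11 at 6 against 3 months (exact permutation p = 0.8). In these 9 comparisons of 3 ratios no test could pass 0.05. Actg2, the other smooth muscle actin, was 19.0, 19.3 and 32.6% of Acta2 at 24 months, against 16.8, 17.9 and 14.8% at 3 months. A ratio of this kind carries the GC and length trend of both genes.

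**Figure D4:**
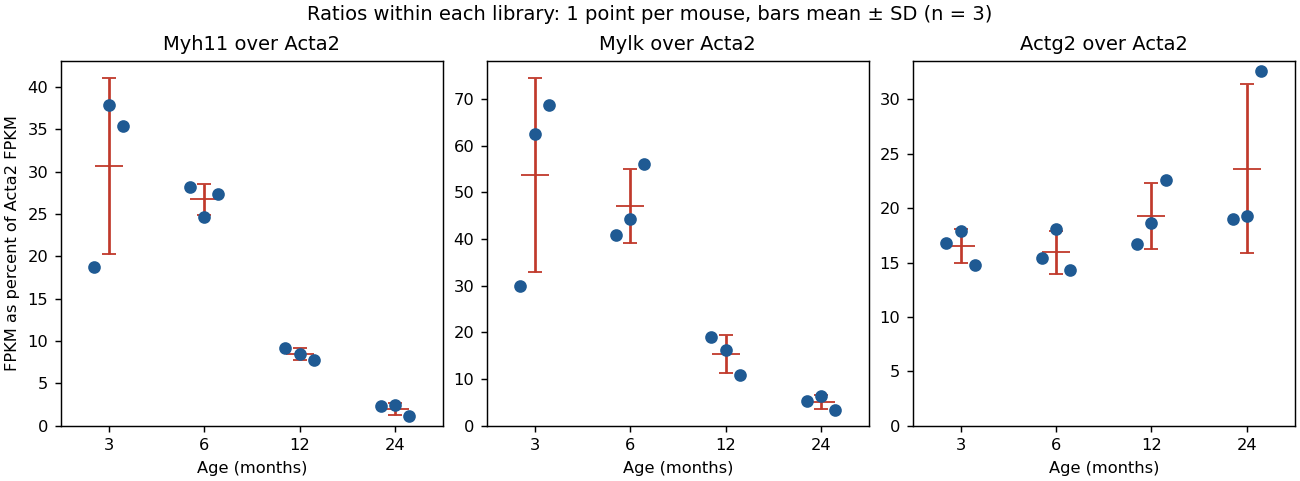
FPKM of Myh11, Mylk and Actg2 as percent of the FPKM of Acta2 in the same library (linear axes from 0) by age in months, with 1 point per mouse and bars for the mean ± SD (n = 3). Myh11 over Acta2 is 7.70 to 9.13% at 12 months and 1.17 to 2.43% at 24 months, below the 18.7 to 37.8% of the 3-month mice.

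The order of the 10 genes by FPKM differed between ages. At 3 months Acta2 (94.9 ± 34.1 FPKM) and Tagln (87.7 ± 26.0) led, Mylk (46.3 ± 7.1) and Des (46.1 ± 11.4) came next, and Myh11 (26.9 ± 4.9), Pdgfrb (24.5 ± 5.4), Cnn1 (23.4 ± 7.0) and Actg2 (15.8 ± 6.2) followed, with neighbours inside each of these groups overlapping. Lmod1 (4.49 ± 0.54 FPKM) and Cspg4 (3.28 ± 0.61 FPKM) closed the order, their ranges just touching at 3.88 to 4.90 and 2.67 to 3.89 FPKM. At 24 months Acta2 (163 ± 34.0 FPKM) and Des (163 ± 50.7 FPKM) led, followed by Tagln (65.2 ± 21.8), Pdgfrb (44.3 ± 3.6), Actg2 (37.0 ± 5.8), Cnn1 (35.5 ± 8.6) and Cspg4 (15.1 ± 9.5). Mylk (8.36 ± 3.42 FPKM), Lmod1 (4.36 ± 1.58 FPKM) and Myh11 (3.38 ± 1.66 FPKM) were the lowest and overlapped each other, as did Cspg4 with Mylk, Tagln with Pdgfrb, and Pdgfrb with Actg2 and Cnn1. The mean FPKM of Tagln and Lmod1 was lower at 24 than at 3 months, whereas the mean TMM-scaled CPM of both was higher, so their direction depends on the scaling.

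Other genes of the contractile machinery were mixed at 24 against 3 months, and the counts of each list stand against 38.2% of all genes higher and 44.6% lower with a median of -0.29, or 30.2% and 26.8% with a median of 0.01 with the correction. Of 16 genes of the thin filament and cytoskeleton 7 rose and 7 fell (median 0.12), and with the correction 2 rose and 6 fell (median -0.29). The genes named next were chosen by the smallest p, and all are among the 7 that fell without the correction. Synm, an intermediate filament protein that pairs with desmin, fell to 13.2 ± 3.0 CPM at 24 months, against 85.1 ± 16.2 CPM at 3 months (-2.69 ± 0.23, and -2.06 ± 0.17 with the correction). Vcl, vinculin of the dense plaques, had -2.98 ± 0.36 and -1.08 ± 0.28 with the correction, and Cald1, caldesmon, -3.15 ± 0.40 and -0.89 ± 0.24.

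Of 18 genes that set calcium and cyclic GMP signals for contraction 15 fell and 2 rose (median -2.46), and with the correction 9 fell and 7 rose (median -0.33). Gucy1a3 and Gucy1b3, the subunits of the nitric oxide receptor that relaxes the muscle, fell in both fits. Gucy1a3 had 11.3 ± 5.0 CPM at 24 months, against 148 ± 15.2 CPM at 3 months (-3.70 ± 0.31, -1.30 ± 0.17 with the correction), and Gucy1b3 11.6 ± 3.2 CPM at 24 months, against 129 ± 21.7 CPM at 3 months (-3.46 ± 0.28, -0.97 ± 0.15 with the correction). Pde5a, which breaks down their product cyclic GMP, fell as well (-3.23 ± 0.28 and -0.80 ± 0.19), as did Itpr1, a calcium release channel (-2.83 ± 0.23 and -0.84 ± 0.11). Kcnma1, the large potassium channel that damps contraction, had 0 reads in all 3 libraries of 24 months and in no younger library. Fewer genes had a read in the 24-month libraries than at younger ages, and whether the channel was lost was not tested.

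Among 8 regulators around SRF 4 rose and 2 fell (median 1.10), and with the correction 3 rose and 1 fell (median -0.08). Srf itself had 305 ± 161 CPM at 24 months, against 62.5 ± 1.4 CPM at 3 months (2.28 ± 0.29), and -0.03 ± 0.11 with the correction (adjusted p = 0.82). Mkl1, its actin-sensing coactivator, had 2.83 ± 0.34 and 0.66 ± 0.11 with the correction, Tgfb1i1, a focal adhesion cofactor, 2.46 ± 0.30 and 0.78 ± 0.18, and Csrp1, a LIM protein of smooth muscle, 1.95 ± 0.22 and 0.68 ± 0.13. Myocd, myocardin, fell without the correction (-1.05 ± 0.44, adjusted p = 0.036) and had -0.13 ± 0.46 with it (adjusted p = 0.83).

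Of 14 other pericyte genes 7 rose and 7 fell (median 0.02), and with the correction 5 rose and 4 fell (median 0.16). The pericyte genes named next are all among the 7 that fell without the correction, and none of the 7 that rose is named. Abcc9, the sulfonylurea receptor of the pericyte potassium channel, fell to 0.796 ± 0.644 CPM at 24 months, against 13.5 ± 2.4 CPM at 3 months (-3.98 ± 0.39, -1.69 ± 0.28 with the correction), and Trpc6, a cation channel, as well (-3.52 ± 0.35 and -1.62 ± 0.27). Postn, periostin, fell in both fits (-3.80 ± 0.47 and -1.14 ± 0.27). Angpt1, the angiopoietin by which mural cells signal to endothelium, had -2.50 ± 0.31 without and 0.08 ± 0.12 (adjusted p = 0.61) with the correction. Rgs5, a regulator of G protein signals and a common pericyte marker, was called lower without (-0.90) and higher with the correction (1.76). Of 5 genes of the PDGF family 3 fell and 1 rose, and with the correction 2 fell. Pdgfb, the ligand of Pdgfrb, had 2.17 ± 0.23 and 0.04 ± 0.19 with the correction (adjusted p = 0.89), and Pdgfra, the alpha receptor of fibroblasts, fell in both (-3.20 ± 0.28 and -1.88 ± 0.18).

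Markers of neighbouring cells also differed at 24 against 3 months. Of 8 fibroblast markers 3 rose and 5 fell (1 and 3 with the correction) and their summed level was 3960 to 4230 CPM at 24 months, against 3020 to 3470 CPM at 3 months. Inmt was the largest part of this sum, with 2460 ± 208 CPM at 24 months, against 1360 ± 232 CPM at 3 months. It rose without the correction (0.85 ± 0.20) and did not pass with it (0.11 ± 0.14, adjusted p = 0.51). Col1a2, a collagen chain, rose in both fits (0.51 ± 0.22 and 2.69 ± 0.28 with the correction). Npnt, a matrix protein of alveolar fibroblasts, fell in both fits (-2.18 ± 0.24 and -1.81 ± 0.13 with the correction). Of 6 endothelial markers 2 rose and 4 fell (2 and 2 with the correction), with sums of 5510 to 11800 CPM at 24 months, against 2940 to 3250 CPM at 3 months. Vwf was the largest part of the 24-month sums, with 5840 ± 2900 CPM, against 574 ± 114 CPM at 3 months (3.35 ± 0.34 and 2.71 ± 0.27 with the correction). Cldn5 rose as well (2.33 ± 0.27 and 0.47 ± 0.15). Pecam1, among the 4 that fell, had 428 ± 177 CPM at 24 months, against 743 ± 26.7 CPM at 3 months (-0.79 ± 0.26, and -0.30 ± 0.18 with the correction, adjusted p = 0.16). Of 4 mesothelial markers 3 rose and 1 fell (0 and 1 with the correction), with sums of 1090 to 1500 CPM at 24 months, against 348 to 422 CPM at 3 months. Krt19 was the largest part of these sums, with 753 ± 171 CPM at 24 months, against 207 ± 30.4 CPM at 3 months. Krt19 rose without the correction (1.86 ± 0.22) and did not pass with it (0.21 ± 0.11, adjusted p = 0.12). No fibroblast, endothelial or mesothelial marker was at 0 reads in any library, and their part in the members' changes was not tested.

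Over the 12 libraries the profiles most like the average of Pdgfrb and Cspg4 among 14552 other genes, by the mean absolute log2 difference, were those of Unc5b (0.10), Nlgn2 (0.11), Sipa1 (0.11), Smtn (0.11), the smooth muscle cytoskeletal protein smoothelin, and Mtss1l (0.11). All 12 libraries and their common GC trend enter this measure.

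The authors' deposited table gave log2 fold changes at 24 against 3 months of 1.58 for Acta2, -2.24 for Myh11, -1.71 for Mylk, 2.71 for Des and 3.10 for Cspg4. At 12 against 3 months the authors' deposited table had 0.757 for Acta2 and -0.866 for Myh11. It also had 0.773 for Des (adjusted p = 0.00165 in that table) and 0.55 for Cnn1 (adjusted p = 0.0424 in that table). The edgeR fit called neither Des nor Cnn1 at this age.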

How the data were processed

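Poly(A) RNA from lungs of 12 mice was sequenced with the NEBNext Ultra kit, per the labels' protocols, and each library was taken as 1 mouse. The table deposited by the authors held raw counts of reads per gene and FPKM for each library, and FPKM recomputed from reads and gene length matched 235411 of 235411 values above 0 within 1e-06. It also held the authors' log2 fold changes and adjusted p-values, from a tool not named in the sources. The submitters' processing notes name TopHat, STAR 2.5, HTSeq 0.6.1 and mm10. Roles, strand use and the handling of shared reads are not given there.

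Genes were filtered with filterByExpr, scaled with TMM and tested with edgeR's quasi-likelihood test (robust, 4.0.16, R 4.3.3) on all 12 libraries with age as factor, Benjamini-Hochberg adjustment over all tested genes and a threshold of 0.05. The SE is the absolute log2 fold change over the root of its F. CPM use TMM library sizes. The correction fits each library's log2 CPM deviation (prior count 2) by a smooth on GC content (GENCODE M21 transcripts, 99.4% of tested genes) and log gene length (mgcv 1.9.3, basis size 30) and enters it as an offset. Alternatives were RLE factors, DESeq2 1.42.0, no filter, a mouse number block, fewer ages and leaving out each mouse, the last of these with the correction being chosen after seeing the data. The scripts were tested on simulated data. The labels do not say that libraries of an age are separate mice, so p-values measure the spread between these libraries, which may be technical. The 10 genes, the gene lists and the tests were chosen with earlier results of these data known. Named genes were all 10 members, up to 4 genes of each other list with the smallest p at 24 against 3 months, up to 3 of the most abundant markers per cell type, and the 5 profiles most like Pdgfrb and Cspg4, while those most like the contractile members are left out, since these moved both ways and their average follows none of them. Rgs5, Myocd, Kcnma1 and the fast skeletal myosins were named after their values were seen.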

Additional observations from a re-analysis of the deposited data

How the results depend on the processing

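Over 24 against 3 months, Acta2, Actg2, Myh11, Mylk, Cnn1, Des, Pdgfrb and Cspg4 kept their direction in all 19 alternatives, with log2 fold changes of 1.09 to 2.14 for Acta2, 1.06 to 2.23 for Actg2, -2.99 to -2.08 for Myh11, -2.48 to -1.60 for Mylk, 0.132 to 1.48 for Cnn1, 0.76 to 2.91 for Des, 0.122 to 1.84 for Pdgfrb and 0.707 to 3.5 for Cspg4. Cnn1 and Pdgfrb lost their calls with the correction. Lmod1 turned to -0.27 with the GC and length correction and to -0.276 with the correction and mouse number as a block, and lay between -0.41 and 0.766 with single mice left out, and Tagln between -0.191 and 0.349. Members called higher were 7 in the fit reported and 4 with the correction, with or without the block, and 4 to 7 with single mice left out.

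For 12 against 3 months, 1 member was called with the correction on all 12 libraries, with or without the block, as 1 higher and 0 lower, and 5 with the correction and without the 24-month libraries, as 3 higher and 2 lower. Over all genes, 3084 of 15949 were called with the correction, 2833 of 15949 with the block added, and 4810 of 15816 without the 24-month libraries. Members called higher were 1 with RLE size factors, 1 with the block alone and 4 without both the correction and the 24-month libraries. These fits called 2059 of 16042, 1587 of 16042 and 5748 of 15908 genes in either direction. With single mice left out, 0 to 5 members were called, 0 to 4 higher and 0 to 2 lower, and Pdgfrb lay between -0.466 and 0.0287. The number of all genes called in these fits ran from 302 of 16245 to 3426 of 16326. For 24 against 12 months, 5 members were called with the correction and the block, 3 were higher with the correction, with or without the block, and 4 were higher in the fit on these ages alone. With the correction and the block 6522 of 15949 genes were called, and 11584 of 15127 in the fit on these ages alone. With single mice left out, 3 to 9 were called and 1 to 7 were higher. Cnn1 turned to -0.205 with the correction and -0.226 with the block added, and lay between -0.327 and 0.771 with single mice left out. Lmod1 turned to -0.525 and -0.54 (adjusted p = 0.0566) in those fits, and lay between -0.678 and 0.563. Tagln had 0.0272 with RLE.

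For 6 against 3 months no member was called in any alternative, and small differences changed sign. Acta2 had 0.00757 with RLE, 0.022 with the block or with the correction, 0.0319 with both, 0.00626 with DESeq2, 0.00207 in the fit on these ages alone, 0.00286 without the 24-month libraries and 0.024 with the correction and without them. Lmod1 had -0.024 with the correction, -0.0199 with the block added and -0.0282 with the correction and without the 24-month libraries. With single mice left out, the lowest and highest values were -0.196 and 0.343 for Acta2, -0.255 and 0.0479 for Myh11, -0.242 and 0.206 for Tagln, -0.378 and 0.0739 for Cnn1, -0.0131 and 0.409 for Des, -0.301 and 0.295 for Actg2, -0.189 and 0.198 for Pdgfrb, -0.0101 and 0.495 for Cspg4, -0.148 and 0.0252 for Mylk, and -0.108 and 0.144 for Lmod1.

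Mouse numbers were not treated as pairs, since the residual r of 18 same-number pairs was -0.246 to 0.186 and over 0.1 in 4. As a block they ended the calls of Actg2 at 12 against 3 months (1.07, adjusted p = 0.0629) and of Lmod1 at 24 against 12 months (0.446, adjusted p = 0.0521), both without the correction. RLE moved the median of all genes at 24 against 3 months to -0.165, against -0.291 with TMM. The cause of these changes was not tested. With 3 mice per age, 14.7 to 21.2 M reads per library and members at 11.4 to 1280 CPM, the SE rest on the spread between few libraries.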
